A study of Homo sapiens with 15 samples.

Results

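In Reh cells, 59 of 19165 protein-coding genes had a higher mean level under CRISPR repression of ERG and a similar mean level with and without restored ETV6. They were chosen from group means of CPM (the reads of a gene scaled to the reads of all named genes in its library). The difference was taken as the log2 ratio of 2 group means, each with 0.5 CPM added. A gene had to average at least 2 CPM in ERG-repressed cells, to lie at least 0.8 above the guide control on that scale, and to differ by less than 0.5 in either direction between wild-type ETV6 and its control. A further 5 genes that met these limits, EGR1, ETS2, PHLDA1, MT1X and MT2A, were left out by name. The levels in the ERG experiment and the wild-type ETV6 comparison therefore chose the members, and they are given below as a description. Counts of members past a test in these contrasts only place the genes. What the choice did not use is ETV6-R399C, the promoter sequences, the transcripts within each gene, and the spread between libraries.

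All 15 libraries come from Reh, an established human cell line of B-lymphoblastic leukaemia. Its ETV6::RUNX1 fusion and the loss of normal ETV6 are therefore common to every group. In the sgERG group (3 libraries), a population with stably integrated dCas9-KRAB under doxycycline control carried a guide RNA vector directed at the ERG promoter. The dCas9-KRAB protein joins a Cas9 that cannot cut to the silencing domain KRAB. The sgCtrl group (3 libraries) carried a non-targeting guide in the same population. Both were sorted for the reporter of the guide vector and then induced with 500 ng/ml doxycycline for 72 h. The ETV6-R399C group (3 libraries) carried an inducible V5-tagged ETV6 with the R399C substitution, which lies in the DNA-binding ETS domain. The ETV6-WT group (3 libraries) carried V5-tagged wild-type ETV6, and the tagBFP group (3 libraries) a fluorescent protein, in the same kind of vector. These 3 groups were induced with 500 ng/ml doxycycline for 48 h. All are transduced populations, not clones, and transgene levels come from a vector and not from the ETV6 promoter.

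ERG and ETV6 are both members of the ETS family of transcription factors, which bind DNA at a GGAA core. ERG is best known as an activator in blood stem cells, megakaryocytes and endothelium, and it is expressed in many B-lymphoblastic leukaemias. ETV6 is a repressor, and loss of its function is a frequent event in this leukaemia. Replication-dependent histone genes, the largest family among the members, are transcribed in S phase, and their messenger RNAs normally end in a stem-loop and carry no poly(A) tail.

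The targeted gene followed the labels. ERG had 105.4, 110.4 and 101.5 CPM in sgERG libraries, against 527, 523 and 514 CPM in sgCtrl libraries, so that 20.3% of the sgCtrl level remained. ETV6 averaged 378 CPM with ETV6-R399C and 480.4 CPM with ETV6-WT, against 5.85 CPM with tagBFP. In the ERG experiment ETV6 also differed, with 6.60 CPM in sgERG cells and 13.1 CPM in sgCtrl cells, or 50.5% of the sgCtrl level. The part of this difference in the levels of the members was not tested. Of 15 B-lineage markers, 14 had at least 1 CPM in every group, and VPREB1 was listed at 0 throughout. The total reads per library ran from 22040338 to 52481351. The experiments differ in vector, sorting and time, and were tested apart.

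A library stands apart for one family of members. The sgERG replicate 1 held the highest value of the group for all 19 histone members, at a median of 1.97 times the mean of replicates 2 and 3. For the other 40 members that median was 0.949, and for 11074 protein-coding genes of at least 2 CPM it was 1.01. With the choice repeated without sgERG replicate 1, 46 genes met it. None of them was a histone gene, and 37 of the 40 other members were among them. The 19 histone members and the 40 others are therefore described apart, a division made after the values were seen.

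**Figure D1:**
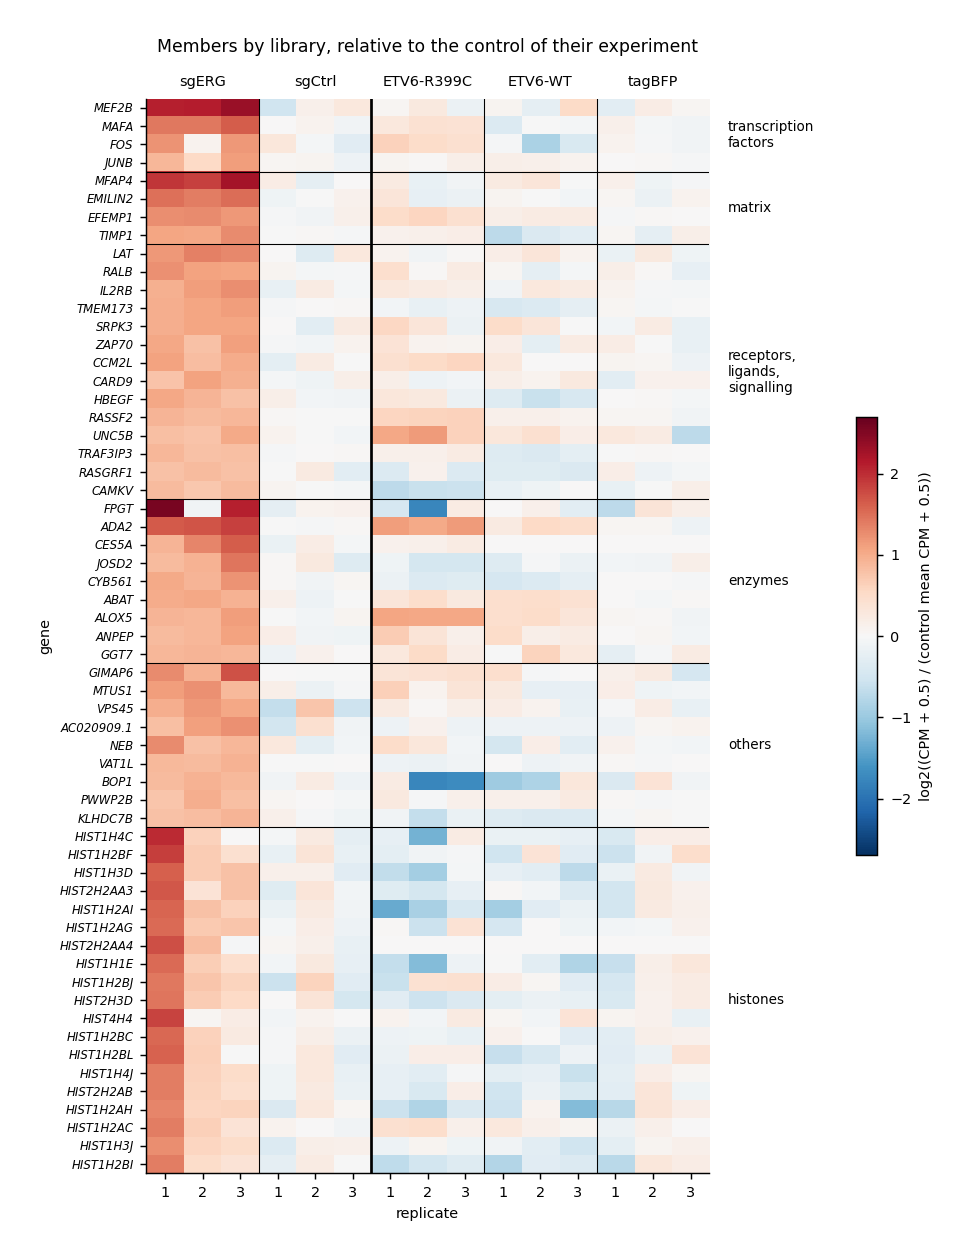
Each row is a member and each column a library (3 replicates in each of 5 groups); colour is the log2 ratio of CPM plus 0.5 to the mean of sgCtrl (left of the thick line) or tagBFP (right of it) plus 0.5. The 19 histone rows are darkest in sgERG replicate 1, while most of the other 40 rows are alike in the 3 sgERG libraries.

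Tested gene by gene, 54 of the 59 members passed edgeR's quasi-likelihood test as higher in sgERG than in sgCtrl (adjusted p at most 0.05), where 6.89% of all 13464 genes tested were called higher. Since the choice used this contrast, the count is given only to place the members. In 52 members all sgERG libraries lay above all sgCtrl libraries, which holds for 20.3% of the genes tested. All 40 members outside the histone family were among the 54 called, and 14 of the 19 histone members were. Without sgERG replicate 1 the counts were 37 of 40 and 7 of 19. Without sgCtrl replicate 1 they were 36 and 2, and without sgCtrl replicate 3 they were 37 and 2. The members just inside the limit of 0.8 were CAMKV and RASGRF1 at 0.81 and HIST1H2BI at 0.82, and the genes just outside were TMC8 and HIST1H2BG at 0.80 and TLN2 at 0.79. At the limit on the mean level, CES5A (2.07 CPM), HIST1H2BJ (2.08 CPM) and RASGRF1 (2.15 CPM) were just inside, and MICAL2 (1.94 CPM), MMP25 (1.84 CPM) and SEMA3G (1.80 CPM) just outside. At the limit on the wild-type ETV6 difference, HIST1H2BI (-0.48), HBEGF (-0.46) and ABAT (0.45) were just inside, and HIST1H3H (-0.50), NAV3 (-0.51) and AC097637.1 (-0.51) just outside.

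The promoters of the members were read for short motifs on both strands, because the largest single difference (MEF2B) and the largest family (the histones) share one. That motif was thus taken up for being seen in these members, and its shares are a description. RefSeq windows on GRCh38.p14, 250 bases before to 50 bases after the start of a gene, were found for 40 members, 14 of them histone genes. The octamer ATTTGCAT, or ATGCAAAT on the other strand, is an element long known from immunoglobulin and histone H2B promoters. It was in 8 of the 14 histone windows (57.1%), in 1 of the 26 others, that of MEF2B, and in 1.70% of 15842 protein-coding windows. The following 4 sequences are the 150 bases before the RefSeq start, 5′ to 3′ on the strand of the gene, with the octamer in capitals.
MEF2B, chr19:19170264-19170413, minus strand: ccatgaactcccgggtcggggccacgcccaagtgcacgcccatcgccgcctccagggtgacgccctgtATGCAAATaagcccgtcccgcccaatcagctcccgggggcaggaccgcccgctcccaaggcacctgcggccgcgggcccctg
HIST1H2BC, chr6:26123927-26124076, minus strand: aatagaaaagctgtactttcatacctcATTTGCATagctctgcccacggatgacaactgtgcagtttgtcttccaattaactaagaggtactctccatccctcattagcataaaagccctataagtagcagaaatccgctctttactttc
HIST1H2BF, chr6:26199366-26199515, plus strand: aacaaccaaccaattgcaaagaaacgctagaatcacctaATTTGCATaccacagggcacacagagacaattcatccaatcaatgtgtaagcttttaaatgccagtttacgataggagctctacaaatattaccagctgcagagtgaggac
HIST1H2BI, chr6:26272781-26272930, plus strand: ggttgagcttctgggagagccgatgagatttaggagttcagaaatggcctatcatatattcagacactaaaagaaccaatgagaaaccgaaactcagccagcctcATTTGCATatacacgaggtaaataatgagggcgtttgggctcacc

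The octamer of MEF2B begins 82 bases before the start, and those of HIST1H2BC, HIST1H2BF and HIST1H2BI begin 123, 111 and 45 bases before it. The 8 histone windows are not independent, since divergent neighbours share their promoter. HIST1H2BC and HIST1H2AC start 219 bases apart, and HIST1H2BJ and HIST1H2AG 292 bases apart. The octamers of HIST1H3D and HIST1H2BF also fall on the same place. The RefSeq window of HIST1H3D thus lies away from the start used for its counts, position 26197250. Only 5 distinct places in the genome lie behind the 8 windows. TATAAA was in 78.6% of histone windows and 11.5% of the other members' windows, against 9.63% of all protein-coding windows. CCAAT was in 85.7% of histone windows and 34.6% of the others, against 36.4% of all. Windows of histone genes that are no members were not counted, so these shares cannot be told apart from those of the histone family.

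The core of ETS sites is short, and its shares among the members were near those of all windows. GGAA was in 92.3% of the 26 other windows and 85.7% of the 14 histone windows, against 95.1% of all. The longer form CCGGAAGT was in 7.69% of the other windows, those of JOSD2 and GGT7, and in no histone window, against 6.19% of all. GGAAGGAA, a pair of adjoining GGAA cores, was in the window of TIMP1 alone among the members (3.85% of the 26 others), against 3.58% of all. TGACTCA, the site of dimers of FOS and JUN family proteins, was in the windows of EMILIN2, GIMAP6 and LAT (11.5% of the others, no histone window), against 3.66% of all. The windows cover only the start of a gene, and these matches describe letters, not binding.

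Among the 4 transcription factors, MEF2B showed the largest difference of the selection rule of all 59 members. MEF2B (chr19:19145568-19170289, minus strand, hg38) encodes a factor of the MEF2 family that is expressed in germinal-centre B cells. MEF2B had 30.3, 31.0 and 35.5 CPM in sgERG libraries, against 4.44, 7.40 and 8.27 CPM in sgCtrl libraries, a ratio of mean levels of 4.82. All sgERG values lay above all sgCtrl values, and the 3 sgERG libraries were close to each other. In the ETV6 experiment MEF2B was low throughout, with 2.55, 3.04 and 2.15 CPM with ETV6-R399C, against 1.94, 2.90 and 2.56 CPM with tagBFP. MEF2B shares exons with the read-through gene BORCS8-MEF2B on the same strand, which makes the division of reads between them uncertain. BORCS8-MEF2B had 7.75 CPM in sgERG cells and 7.59 CPM in sgCtrl cells (log2 fold change 0.01, edgeR, adjusted p = 0.986), with a sign that turned when single libraries were left out (-0.28 at the lowest, without sgCtrl replicate 3).

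MAFA, a basic leucine zipper factor best known from pancreatic beta cells, had 57.2, 57.2 and 66.1 CPM in sgERG libraries, against 21.0, 22.3 and 19.5 CPM in sgCtrl libraries. With ETV6-R399C it had 9.10, 9.86 and 9.71 CPM, against 8.08, 7.11 and 6.83 CPM with tagBFP. The log2 fold change of MAFA for ETV6-R399C over tagBFP was 0.35 ± 0.11 (SE, edgeR, adjusted p = 0.0217), a call lost with an offset for transcript length (0.33, edgeR, adjusted p = 0.0629) and when ETV6-R399C replicate 2 or 3, or tagBFP replicate 2 or 3, was left out (edgeR, adjusted p 0.0609 to 0.0678).

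JUNB and FOS encode subunits of AP-1, a dimeric factor induced early after many stimuli. JUNB had 133, 103.4 and 156 CPM in sgERG libraries, against 73.9, 75.6 and 64.7 CPM in sgCtrl libraries, with no overlap. FOS had 10.4, 4.58 and 10.1 CPM in sgERG libraries, against 5.36, 4.04 and 3.31 CPM in sgCtrl libraries. Replicate 2 was the lowest sgERG library for both genes, and for FOS it lay within the sgCtrl range. FOS passed narrowly (log2 fold change 0.96, edgeR, adjusted p = 0.0459). Its call was lost with DESeq2 (adjusted p = 0.105). It was also lost without any one sgCtrl library, and without sgERG replicate 1 or 3 (edgeR, adjusted p 0.0597 to 0.159). Of the 36 genes of a list of MAPK feedback and immediate-early genes that holds both, 30 could be tested, and 9 were higher and 4 lower in sgERG than in sgCtrl, with a median log2 fold change of 0.16 against 0.00 over all genes tested. Of all genes tested, 6.89% were called higher and 7.74% lower. FOS and JUNB, chosen on this contrast, are 2 of the 9. The list's JUN averaged 32.9 CPM in sgERG cells against 21.5 CPM in sgCtrl cells (log2 fold change 0.60, edgeR, adjusted p = 0.011). FOSB averaged 6.09 CPM in sgERG cells against 3.97 CPM in sgCtrl cells (0.60, edgeR, adjusted p = 0.014). Both calls were lost without sgCtrl replicate 3 (edgeR, adjusted p = 0.0529 for JUN and 0.0622 for FOSB), and that of FOSB with the length offset (0.75, edgeR, adjusted p = 0.0986). DUSP6, a phosphatase that restrains ERK, went the other way with 145 CPM in sgERG cells and 281 CPM in sgCtrl cells (-0.97, edgeR, adjusted p = 1.8e-07), and IER2 had 299 CPM in sgERG cells and 304 CPM in sgCtrl cells.

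**Figure D2:**
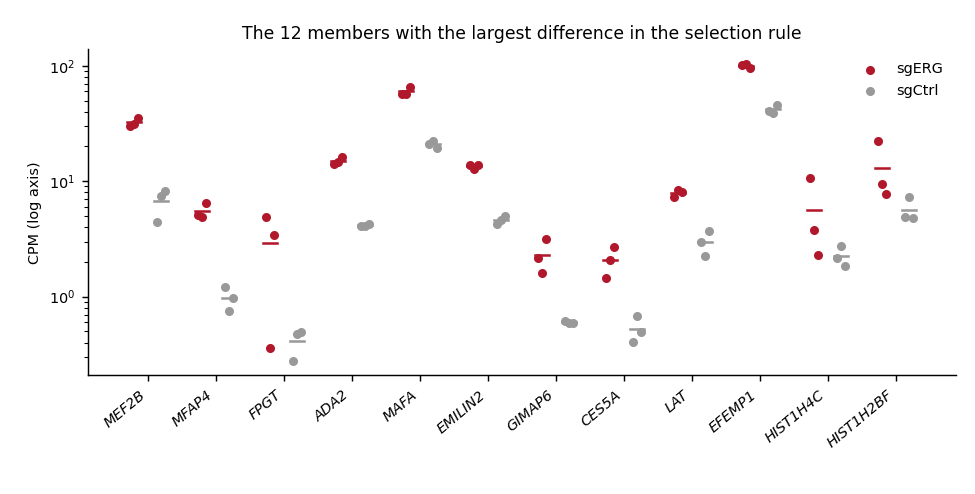
Points are CPM in each of 3 libraries on a log axis and lines are group means, for sgERG (left of each pair) and sgCtrl, in the 12 members with the largest difference of the rule. In 10 of the 12 genes, chosen on this contrast, the groups are apart, as in 20.3% of all genes tested in this direction. FPGT and HIST1H4C are the exceptions, each with 1 sgERG library within the sgCtrl range.

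The 4 members that encode proteins of the extracellular matrix or their regulators were higher in every sgERG library than in any sgCtrl library. They were chosen on this contrast, and the same holds for 38 of the 40 members outside the histone family and for 20.3% of all genes tested. MFAP4, a microfibril-associated glycoprotein, had 5.10, 4.85 and 6.47 CPM in sgERG libraries, against 1.20, 0.754 and 0.981 CPM in sgCtrl libraries. EMILIN2, an elastin-interface glycoprotein, had 13.8, 12.8 and 13.9 CPM in sgERG libraries, against 4.22, 4.58 and 4.98 CPM in sgCtrl libraries. EFEMP1, the matrix protein fibulin-3, had 100.9, 103.1 and 95.7 CPM in sgERG libraries, against 40.9, 39.1 and 46.0 CPM in sgCtrl libraries. EFEMP1 was the most abundant of these 4 per length too, at 98.4 TPM in sgERG cells. TIMP1, an inhibitor of matrix metalloproteinases, had 10.5, 10.3 and 12.2 CPM in sgERG libraries, against 4.70, 4.86 and 4.64 CPM in sgCtrl libraries. MFAP4 lies opposite exons of MAPK7, which had 33.6 CPM in sgERG cells and 29 CPM in sgCtrl cells. The sources used here do not give the strand setting of the counting, so the level of MFAP4 is uncertain.

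Markers of stromal cells were read beside the matrix genes. Of 5 such markers 2, COL1A1 and PDGFRB, had at least 1 CPM, DCN and LUM were listed at 0 in the sgERG and sgCtrl libraries, and the sum of the list was 91.8 to 98.9 CPM in sgERG and 76.8 to 80.4 CPM in sgCtrl libraries. Their part in the matrix result was not tested. In bulk libraries, more cells that express a gene and more RNA of it per cell cannot be told apart.

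Of the 14 members that encode receptors, ligands or signalling proteins, 2 are best known from T cells. LAT, the membrane adaptor of the T-cell receptor, had 7.32, 8.34 and 8.01 CPM in sgERG libraries, against 2.95, 2.23 and 3.68 CPM in sgCtrl libraries. ZAP70, the kinase that phosphorylates LAT and that some B-cell leukaemias also express, had 8.07, 6.71 and 8.45 CPM in sgERG libraries, against 3.59, 3.47 and 3.98 CPM in sgCtrl libraries. Neither gene overlapped between the groups, and 20.3% of all genes tested were likewise higher in every sgERG library. None of 6 T-cell markers reached 1 CPM, CD2 and CD3D were listed at 0 in every library, and the list summed to 0.875 to 0.960 CPM in sgERG and 0.350 to 1.21 CPM in sgCtrl libraries. The kinase LCK had 14 CPM in sgERG cells and 14.6 CPM in sgCtrl cells. On a list of 17 T-cell genes, 9 could be tested, and 3 were higher and none lower in sgERG, against 6.89% higher and 7.74% lower of all genes tested. Of the 3, LAT and ZAP70 were chosen on this contrast. LAT shares an exon on its strand with AC109460.3, which makes its level uncertain.

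IL2RB, the beta chain of the receptors for interleukins 2 and 15, had 3.24, 3.67 and 4.07 CPM in sgERG libraries, against 1.16, 1.75 and 1.35 CPM in sgCtrl libraries. The groups did not overlap, and in the ETV6 experiment IL2RB reached at most 0.394 CPM in any library and was not tested. On a list of 33 cytokine and chemokine receptors, 22 could be tested, and 3 were higher, the member IL2RB among them, and 3 lower in sgERG, beside the same shares of all genes.

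UNC5B, a netrin receptor, had 58.3, 57.0 and 67.6 CPM in sgERG libraries, against 35.3, 32.9 and 31.4 CPM in sgCtrl libraries. RASSF2, a tumour suppressor that binds RAS, had 42.3, 41.0 and 42.0 CPM in sgERG libraries, against 22.8, 22.0 and 22.0 CPM in sgCtrl libraries. CCM2L, a relative of the vascular scaffold CCM2, had 15.7, 13.0 and 14.7 CPM in sgERG libraries, against 5.80, 8.41 and 7.05 CPM in sgCtrl libraries. All 3 genes, chosen on this contrast, were apart in every library, as were 20.3% of all genes tested in this direction. None of 5 endothelial markers reached 1 CPM. CDH5 and KDR were listed at 0 in both groups, VWF led in sgERG and sgCtrl, and the list summed to 0.330 to 0.843 CPM in sgERG and 0.242 to 0.409 CPM in sgCtrl libraries. The part of these markers in the levels of the 3 genes was not tested.

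HBEGF, a ligand of the EGF receptor, had 22.1, 20.4 and 18.6 CPM in sgERG libraries, against 11.7, 9.97 and 9.80 CPM in sgCtrl libraries. EGFR itself was listed at 0 in every library. TRAF3IP3, an adaptor known from lymphocyte development, had 12.1, 11.3 and 11.5 CPM in sgERG libraries, against 6.15, 6.35 and 6.44 CPM in sgCtrl libraries. CAMKV, a kinase-like protein of neuronal vesicles, had 6.63, 6.02 and 6.60 CPM in sgERG libraries, against 3.66, 3.42 and 3.29 CPM in sgCtrl libraries. For the 5 other genes of this class, the RAS-family GTPase RALB, the DNA-sensing adaptor TMEM173 (STING), the kinase SRPK3, the adaptor CARD9 and the exchange factor RASGRF1, the sgERG and sgCtrl libraries did not overlap either. These genes were chosen on this contrast, in which sgERG libraries lay above all sgCtrl libraries for 20.3% of all genes tested. SRPK3 and CARD9 share exons with PLXNB3 and DNLZ, so their levels are uncertain. Over all 59 members, 10 share an exon with another gene on the same strand and 11 lie opposite an exon of another gene, among them ABAT, ADA2, CCM2L, JUNB and TRAF3IP3, which carries the same uncertainty.

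Enzymes made up 9 of the members. ADA2 (chr22:17178790-17258235, minus strand), a secreted adenosine deaminase, had 14.2, 14.6 and 16.2 CPM in sgERG libraries, against 4.11, 4.09 and 4.29 CPM in sgCtrl libraries, a ratio of means of 3.60. ALOX5 (chr10:45374176-45446119, plus strand), which begins the synthesis of leukotrienes, had 39.5, 38.7 and 45.4 CPM in sgERG libraries, against 20.4, 19.6 and 21.8 CPM in sgCtrl libraries. ABAT, which breaks down the transmitter GABA, had 24.8, 25.6 and 23.8 CPM in sgERG libraries, against 13.5, 11.1 and 12.1 CPM in sgCtrl libraries. These 3 enzymes are also among the members that differed with ETV6-R399C, described further on.

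CES5A, a carboxylesterase, had 1.44, 2.08 and 2.68 CPM in sgERG libraries, against 0.404, 0.682 and 0.498 CPM in sgCtrl libraries. FPGT, which makes GDP-fucose in the salvage of fucose, had 4.88, 0.361 and 3.44 CPM in sgERG libraries, against 0.279, 0.477 and 0.491 CPM in sgCtrl libraries. The sgERG replicate 2 of FPGT lay within the sgCtrl range, so that the place of FPGT among the members rests on the other 2 libraries. FPGT shares exons with FPGT-TNNI3K. With an offset for transcript length its log2 fold change was 0.69 (edgeR, adjusted p = 0.322), against 2.77 without it (edgeR, adjusted p = 0.0251). Its call was also lost without sgERG replicate 1 or without any one sgCtrl library (edgeR, adjusted p 0.0641 to 0.114). The transcript FPGT-202 was listed at 4.78, 0 and 3.14 CPM in sgERG libraries and at 0 in all sgCtrl libraries. Of the remaining enzymes, the aminopeptidase ANPEP (CD13) had 3.93 to 4.65 CPM in sgERG and 1.76 to 2.25 CPM in sgCtrl libraries, and the deubiquitinase JOSD2, the reductase CYB561 and the gamma-glutamyltransferase relative GGT7 had between 5.21 and 8.79 CPM in sgERG libraries. Of 7 myeloid markers, 2 had at least 1 CPM in both groups. MPO averaged 100.4 CPM in sgERG and 74.0 CPM in sgCtrl cells, and CSF1R 6.19 and 7.12 CPM. On a list of 20 myeloid genes that holds no member, 10 could be tested. Of these, 5 were higher and none lower in sgERG, against 6.89% higher and 7.74% lower of all genes tested. Their part in the levels of the members was not tested.

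Of the 9 members in no class, VAT1L had the highest level, with 141, 139 and 147 CPM in sgERG libraries, against 75.9, 76.6 and 77.7 CPM in sgCtrl libraries. GIMAP6, a GTPase of the immunity-associated family, had 2.16, 1.60 and 3.13 CPM in sgERG libraries, against 0.613, 0.592 and 0.592 CPM in sgCtrl libraries. VPS45, a regulator of vesicle fusion, had 18.4, 21.0 and 19.0 CPM in sgERG libraries, against 5.63, 15.5 and 5.93 CPM in sgCtrl libraries. A single sgCtrl library, replicate 2, thus lay close to the sgERG level of VPS45. Its transcript VPS45-202 was listed at 0, 11.3 and 0 CPM in sgCtrl libraries, against 14.3, 17.0 and 14.9 CPM in sgERG libraries. The level of VPS45 thus turns on how reads were assigned to 1 transcript. With the length offset its log2 fold change was 0.53, against 1.12 without it. The call was lost without sgERG replicate 1 (edgeR, adjusted p = 0.0543). AC020909.1 had 4.80, 5.97 and 6.61 CPM in sgERG libraries, against 1.65, 3.56 and 2.32 CPM in sgCtrl libraries, and shares exons on its strand with POLD1 and SPIB. POLD1 had 256 CPM in sgERG cells and 226 CPM in sgCtrl cells, and SPIB had 47.5 CPM in sgERG cells and 14.7 CPM in sgCtrl cells. The level of AC020909.1 is therefore uncertain, and SPIB, one of the genes the selection bars by name, also lay outside the limit on the wild-type difference, at 72.8 CPM with ETV6-WT and 41.4 CPM with tagBFP.

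The 19 histone members comprise genes of all 5 histone classes, 14 of them on chromosome 6, 4 on chromosome 1 and 1 on chromosome 12. Their summed level was 252, 127 and 112 CPM in sgERG libraries, against 72.4, 94.3 and 69.0 CPM in sgCtrl libraries. The groups do not overlap, but the first sgERG library is far above the other pair, and sgCtrl replicate 2 held the highest sgCtrl value for 18 of the 19 genes. HIST1H2BF had 22.1, 9.46 and 7.81 CPM in sgERG libraries, against 4.86, 7.29 and 4.84 CPM in sgCtrl libraries. HIST1H4C had 10.7, 3.76 and 2.29 CPM in sgERG libraries, against 2.16, 2.77 and 1.84 CPM in sgCtrl libraries, and overlapped between the groups. The median log2 fold change of the 19 was 1.06 with all libraries and 0.59 without sgERG replicate 1. Whether poly(A) RNA was selected for these libraries is not stated in the labels.

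The histone genes that did not become members had the same profile over libraries. The 27 of them summed to 502, 261 and 224 CPM in sgERG libraries, against 165, 209.8 and 161 CPM in sgCtrl libraries. Of the 21 that could be tested, 10 were higher and none lower in sgERG (edgeR). Without sgERG replicate 1 the count was 7, and without sgCtrl replicate 1 or without sgCtrl replicate 3 it was 0. Genes that accompany S phase were read beside them. On a list of 26 cell-cycle genes, all tested, 5 were higher and none lower, with a median log2 fold change of 0.06, where 6.89% of all genes were called higher. MCM2, a subunit of the replicative helicase, averaged 559.8 CPM in sgERG cells and 496 CPM in sgCtrl cells (0.16, edgeR, adjusted p = 0.0971), and passed with DESeq2 (adjusted p = 0.0343). MKI67 averaged 959 CPM in sgERG cells and 901 CPM in sgCtrl cells (0.07, adjusted p = 0.37 in edgeR). SLBP, which binds the stem-loop of histone messengers, averaged 131 CPM in sgERG cells and 125 CPM in sgCtrl cells (0.06, adjusted p = 0.406 in edgeR). NPAT, an activator of histone genes, averaged 45.3 CPM in sgERG cells and 45.8 CPM in sgCtrl cells (-0.03, adjusted p = 0.701 in edgeR). The histone variant genes H3F3A and H3F3B, whose messengers are polyadenylated, had log2 fold changes of -0.05 and 0.10 (adjusted p = 0.506 and 0.113 in edgeR), and the variant genes H2AFX and H2AFZ had 0.28 and 0.17 (adjusted p = 0.0253 and 0.0329 in edgeR). The calls of H2AFX and H2AFZ were lost without sgCtrl replicate 1 or without sgCtrl replicate 3 (edgeR, adjusted p 0.0936 to 0.151), and that of H2AFZ also without sgCtrl replicate 2 (edgeR, adjusted p = 0.0726) and with a replicate block (edgeR, adjusted p = 0.0579).

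**Figure D3:**
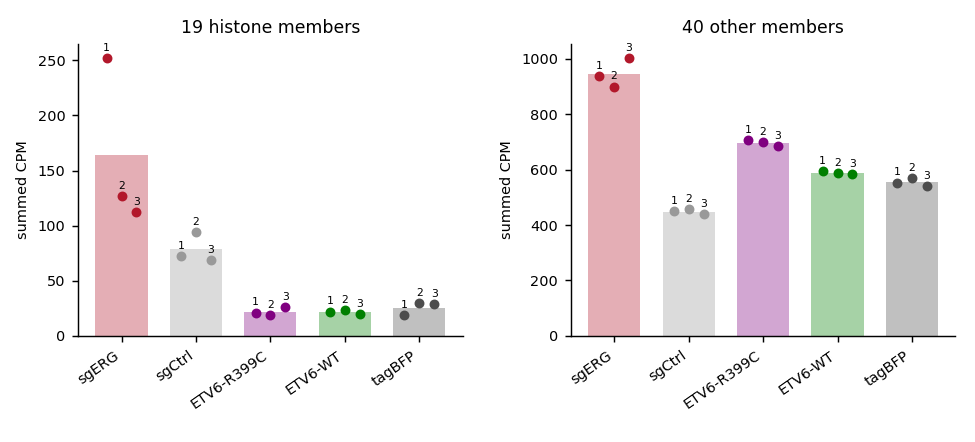
Points are the summed CPM of the 19 histone members (left) and of the 40 other members (right) in each library, numbered by replicate, and bars are group means from 0. Histone members reach 252 CPM in sgERG replicate 1 and lie between 18.7 and 29.7 CPM in all 9 libraries of the ETV6 experiment; the other members lie between 899 and 1002 CPM in sgERG and between 440.3 and 456 CPM in sgCtrl.

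The guide control and the tagBFP control did not have the same levels of the members. In sgCtrl, the mean lay above that of tagBFP for 19 of 19 histone members and 25 of the other 40, against 48.8% of all genes tested. The histone members summed to 78.6 ± 13.7 CPM in sgCtrl and 25.8 ± 6.08 CPM in tagBFP libraries (SD, n = 3 each), a ratio of 3.05. The other members summed to 448 ± 7.95 CPM in sgCtrl and 554 ± 13.8 CPM in tagBFP libraries (SD, n = 3 each). UNC5B had a mean of 33.2 CPM in sgCtrl and 1.00 CPM in tagBFP cells, and EFEMP1 had 42.0 CPM in sgCtrl and 177 CPM in tagBFP cells. Vector, sorting, induction time and the set of libraries differ together between these controls and cannot be told apart. HIST2H2AA3 and HIST2H2AA4 are nearly identical copies, and HIST2H2AA4 was listed at 0 in all 9 libraries of the ETV6 experiment, so the division of reads between them is uncertain.

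With wild-type ETV6, whose small difference from tagBFP was part of the choice, 52 of the 59 members could be tested. Of these, 6 were called higher and 4 lower than tagBFP, where 36.5% of the 14242 genes tested were called in either direction. The 6 were ABAT, ADA2, ALOX5, EFEMP1, JUNB and RASSF2, and the 4 were HBEGF, TIMP1, TMEM173 and TRAF3IP3. A difference under the limit of 0.5 is thus not the same as the lack of one. The calls of RASSF2, TIMP1 and JUNB were each lost when some single libraries were left out (edgeR, adjusted p up to 0.152). The 7 members not tested, CES5A, IL2RB, RASGRF1, AC020909.1, HIST1H3D, HIST2H2AA4 and HIST2H2AB, had too few reads in the ETV6 experiment.

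ETV6-R399C was not used by the choice, though its comparisons share the tagBFP and the ETV6-WT libraries with it. Of the 52 members tested, 8 were higher with ETV6-R399C than with tagBFP and 3 were lower (edgeR, adjusted p at most 0.05), where 18.8% and 22.1% of all 14242 genes were called higher and lower. The share of members called higher is thus near that of all genes, and the share called lower is below it. The tagBFP libraries entered the choice, and no test of these shares was made. The median log2 fold change over the 52 was 0.09, against 0.00 over all genes tested. In 12 of the 52 all ETV6-R399C libraries lay above all tagBFP libraries and in 6 below, against 26.4% and 24.2% of all genes. The 8 were ABAT, ADA2, ALOX5, CCM2L, EFEMP1, MAFA, RASSF2 and UNC5B. None of the 16 histone members tested was among them, and 1, HIST1H2AI, was among the lower.

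ALOX5 had the smallest adjusted p of these members. It had 45.2, 44.7 and 44.6 CPM with ETV6-R399C and 29.3, 30.3 and 26.9 CPM with ETV6-WT, against 22.1, 21.9 and 19.8 CPM with tagBFP. The log2 fold change of ALOX5 for ETV6-R399C over tagBFP was 1.05 ± 0.05 (SE, edgeR, adjusted p = 7.0e-08). ETV6-R399C over ETV6-WT gave 0.60 ± 0.05 (SE, edgeR, adjusted p = 1.2e-05), so the substituted form had the higher ALOX5 level. The 3 groups were apart in every library.

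ADA2 had 7.94, 7.31 and 8.02 CPM with ETV6-R399C and 4.02, 5.06 and 4.82 CPM with ETV6-WT, against 3.49, 3.51 and 3.0 CPM with tagBFP. Its log2 fold change was 1.19 ± 0.12 for ETV6-R399C over tagBFP (SE, edgeR, adjusted p = 1.2e-05) and 0.70 ± 0.11 for ETV6-R399C over ETV6-WT (SE, edgeR, adjusted p = 0.00128). With an offset for transcript length, which weighs the transcripts described below, the second difference was larger, at 1.27, and did not pass (edgeR, adjusted p = 0.0614).

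RASSF2 had 65.4, 66.1 and 67.1 CPM with ETV6-R399C and 48.0, 48.0 and 46.5 CPM with ETV6-WT, against 45.4, 45.0 and 40.5 CPM with tagBFP. The log2 fold change of RASSF2 was 0.58 ± 0.04 over tagBFP (SE, edgeR, adjusted p = 1.3e-06) and 0.44 ± 0.04 over ETV6-WT (SE, edgeR, adjusted p = 2.6e-05). EFEMP1 had 249, 265 and 238 CPM with ETV6-R399C and 198, 205 and 205 CPM with ETV6-WT, against 174, 181 and 177 CPM with tagBFP. Its log2 fold change was 0.48 ± 0.03 over tagBFP (SE, edgeR, adjusted p = 1.3e-06) and 0.27 ± 0.03 over ETV6-WT (SE, edgeR, adjusted p = 2.4e-04). For both genes ETV6-R399C was the highest group in every library.

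CCM2L had 23.6, 25.1 and 26.1 CPM with ETV6-R399C and 21.3, 17.3 and 17.3 CPM with ETV6-WT, against 18.3, 18.0 and 15.7 CPM with tagBFP. Its log2 fold change was 0.50 ± 0.09 over tagBFP (SE, edgeR, adjusted p = 7.9e-04) and 0.39 ± 0.09 over ETV6-WT (SE, edgeR, adjusted p = 0.00926). ABAT stood differently, with 17.3, 19.2 and 16.5 CPM with ETV6-R399C and 18.9, 19.3 and 18.4 CPM with ETV6-WT, against 13.8, 13.2 and 14 CPM with tagBFP. It was higher with ETV6-R399C than with tagBFP (0.34 ± 0.06, SE, edgeR, adjusted p = 0.00112), a call lost with the length offset (0.28, edgeR, adjusted p = 0.0804). Between the ETV6 forms ABAT did not pass the test (-0.13 ± 0.06, SE, edgeR, adjusted p = 0.159). UNC5B was called at a low level, with 2.60, 2.84 and 1.82 CPM with ETV6-R399C, against 1.33, 1.26 and 0.416 CPM with tagBFP (1.22 ± 0.33, SE, edgeR, adjusted p = 0.012).

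The 3 members lower with ETV6-R399C differed in firmness. CAMKV had 3.98, 4.31 and 4.33 CPM with ETV6-R399C and 5.84, 6.23 and 6.85 CPM with ETV6-WT, against 5.86, 6.75 and 7.66 CPM with tagBFP. It fell by 0.70 on the log2 scale over tagBFP (edgeR, adjusted p = 7.3e-04) and fell by 0.62 over ETV6-WT (edgeR, adjusted p = 0.00445), and the ETV6-R399C libraries were below all others. VAT1L had 56.3, 55.7 and 57.7 CPM with ETV6-R399C, against 63.2, 60.6 and 62.2 CPM with tagBFP (-0.16 ± 0.04, SE, edgeR, adjusted p = 0.0155). HIST1H2AI had 0.275, 0.591 and 0.976 CPM with ETV6-R399C, against 0.911, 1.87 and 1.69 CPM with tagBFP (-1.28 ± 0.45, SE, edgeR, adjusted p = 0.0391). The call of VAT1L was lost with the length offset (-0.08, edgeR, adjusted p = 0.377) and without ETV6-R399C replicate 1 or 2 or tagBFP replicate 1. That of HIST1H2AI was lost with the length offset (-1.27, edgeR, adjusted p = 0.0829) and without ETV6-R399C replicate 1 or 2 or tagBFP replicate 2 or 3. Without ETV6-R399C replicate 2 the count of lower members was 1, and without tagBFP replicate 1 it was 5.

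**Figure D4:**
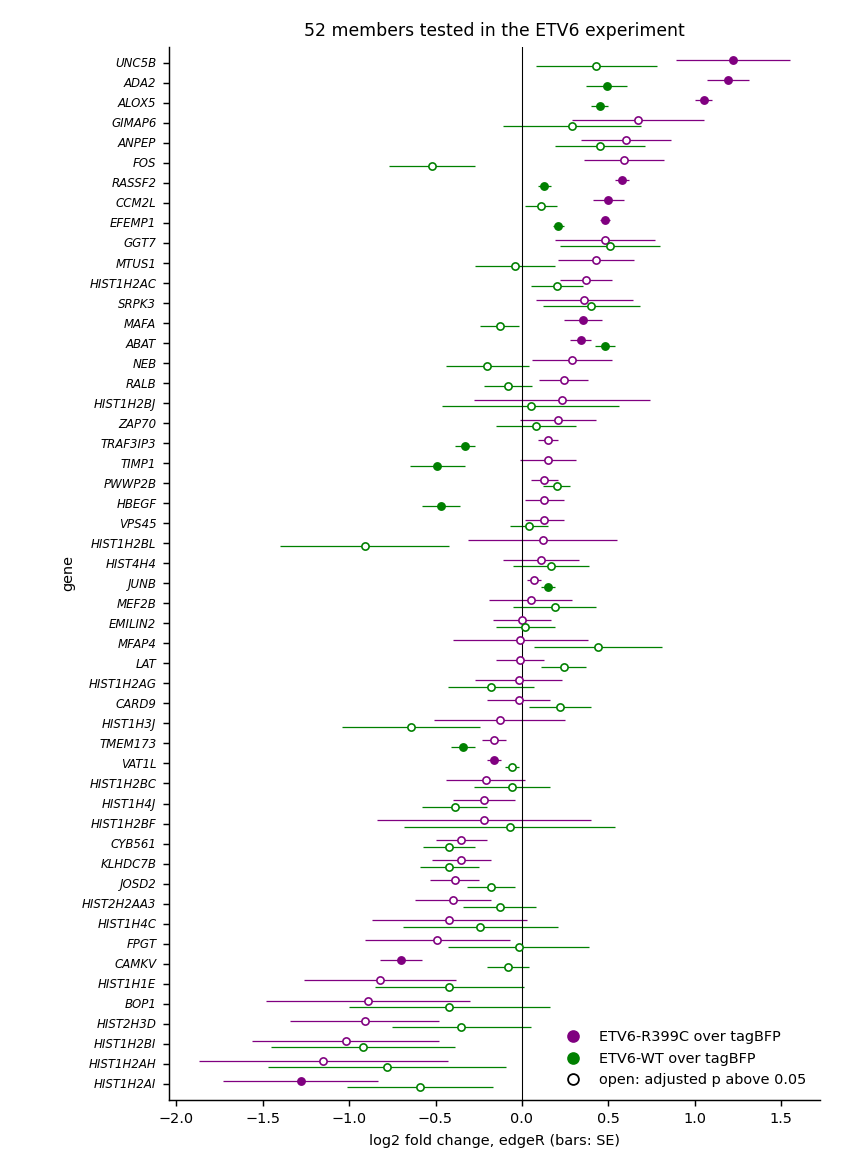
Each line is 1 of the 52 members tested in the ETV6 experiment, with its log2 fold change and SE for ETV6-R399C over tagBFP (purple, upper) and ETV6-WT over tagBFP (green, lower); filled points passed edgeR's test at an adjusted p of 0.05. ALOX5, ADA2 and UNC5B lie above 1 for ETV6-R399C, and TRAF3IP3, TIMP1 and HBEGF passed below 0 for ETV6-WT and did not pass for ETV6-R399C.

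Set directly against wild-type ETV6, ETV6-R399C gave higher levels of 10 of the 52 members and a lower level of 1, where 9.29% of all genes were called higher and 12.1% lower. The 10 were ADA2, ALOX5, CCM2L, EFEMP1, MAFA and RASSF2, named above, and FOS, HBEGF, TIMP1 and TRAF3IP3. The members' share of higher calls lies above that of all genes and their share of lower calls below it. The ETV6-WT libraries entered the choice, and no test of these shares was made. ETV6 itself averaged 378 CPM with ETV6-R399C and 480.4 CPM with ETV6-WT (-0.38, edgeR, adjusted p = 2.5e-05). The level of the transgene and the substitution therefore cannot be told apart. In 12 of the 52 all ETV6-R399C libraries lay above all ETV6-WT libraries and in 3 below, against 21.3% and 16.3% of all genes. By this measure the members' share above is near that of all genes, and their share below is under it. TRAF3IP3 had 18.5, 18.5 and 19.5 CPM with ETV6-R399C, against 13.1, 12.6 and 13.9 CPM with ETV6-WT (0.48 ± 0.06, SE, edgeR, adjusted p = 1.6e-04). HBEGF had 20.5, 19.7 and 14.6 CPM with ETV6-R399C, against 12.7, 10.6 and 12.1 CPM with ETV6-WT (0.60 ± 0.11, SE, edgeR, adjusted p = 0.00331). For both genes the tagBFP libraries, at 16.6 to 17.0 CPM for TRAF3IP3 and 15.9 to 16.8 CPM for HBEGF, lay above ETV6-WT. FOS had 3.23, 2.94 and 2.77 CPM with ETV6-R399C, against 1.90, 0.840 and 1.33 CPM with ETV6-WT (1.11 ± 0.25, SE, edgeR, adjusted p = 0.00823). TIMP1 had 4.49, 4.56 and 4.72 CPM with ETV6-R399C, against 2.31, 3.02 and 3.28 CPM with ETV6-WT (0.64 ± 0.16, SE, edgeR, adjusted p = 0.0166), and MAFA gave 0.48 ± 0.11 (SE, edgeR, adjusted p = 0.0098).

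The transcripts behind a gene's level differed between the experiments for some members. Salmon divides reads between overlapping transcripts by a model, so these values carry that model's error as well as the spread given. Of MEF2B, the transcript MEF2B-204 had 21.5 ± 1.82 CPM in sgERG cells and 4.20 ± 2.60 CPM in sgCtrl cells (SD, n = 3 each), and was listed at 0 in all libraries of the ETV6 experiment. There MEF2B-201 held 83.0% of the gene's reads with ETV6-R399C and 71.5% with tagBFP. MEF2B-201 starts at position 19170263, the base after the promoter shown above, and MEF2B-204 at 19170245.

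For ADA2 the transcripts that were high in sgERG were not the one that was high with ETV6-R399C. ADA2-202, which starts at position 17199783, had 8.36 ± 1.55 CPM in sgERG cells (SD, n = 3) and was listed at 0 in sgCtrl cells. ADA2-203 had 4.35 ± 0.748 CPM in sgERG cells and 0.670 ± 0.0213 CPM in sgCtrl cells (SD, n = 3 each). ADA2-201, which starts at position 17209889, had 1.65 ± 1.44 CPM in sgERG cells and 2.74 ± 0.676 CPM in sgCtrl cells (SD, n = 3 each). With ETV6-R399C it was ADA2-201 that was high, at 6.05 ± 1.05 CPM, against 3.94 ± 0.831 CPM with ETV6-WT and 2.26 ± 1.96 CPM with tagBFP (SD, n = 3 each). For ALOX5, both ALOX5-201 and ALOX5-207 had higher means in sgERG (20.3 and 17.3 CPM) than in sgCtrl (10.7 and 8.01 CPM). With ETV6-R399C, ALOX5-201 had 32.1 ± 3.07 CPM and ALOX5-207 8.21 ± 2.44 CPM, against 13.0 ± 2.59 and 6.27 ± 1.95 CPM with tagBFP (SD, n = 3 each). ALOX5-207 held 41.9% of the gene's reads in sgERG and 38.9% in sgCtrl cells, and 18.3% with ETV6-R399C, 17.3% with ETV6-WT and 29.5% with tagBFP.

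**Figure D5:**
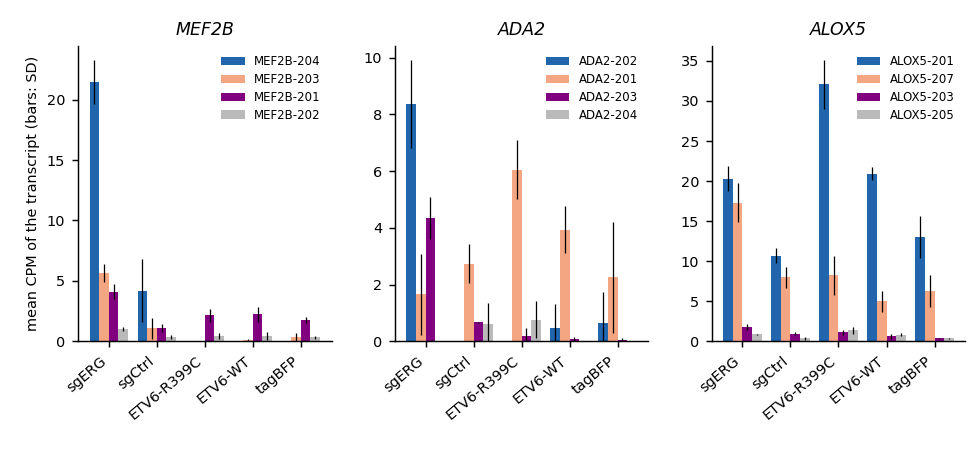
Bars are mean CPM of the 4 most abundant transcripts of MEF2B, ADA2 and ALOX5 in each group of 3 libraries, with SD. In ADA2, ADA2-202 leads in sgERG at 8.36 CPM and ADA2-201 leads in the other 4 groups.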

How the data were processed

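Messenger RNA of 15 Reh libraries in 5 groups of 3 had been quantified by the authors with Salmon 0.11.3 against hg38, per the submitters' processing notes. The deposited tables give an estimated count, TPM, length and effective length per transcript, per the file headers. The sources used here do not state the strand setting or bias options. Of the transcripts, 90.3% were named by GENCODE 29, and the rest, with 6.67% to 7.56% of the reads, were left out. Estimated counts were summed over 33367 genes and rounded for the tests. Reads without unique molecular identifiers were counted, so errors cover the spread between libraries only. Nothing states that replicates were separate cultures, and p-values then measure only the spread between these libraries, which may be technical.

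Tests used edgeR 4.0.16 in R 4.3.3 (quasi-likelihood, TMM, default filter on low counts, Benjamini-Hochberg over all genes tested, threshold 0.05), with 6 libraries in the ERG fit and 9 in the ETV6 fit. The SE is the log2 fold change divided by the square root of F and restates the test. The biological coefficient of variation was 6.24% and 4.95%. On simulated data the ERG fit (13440 genes) recovered 89.6% of genes changed 1.5-fold and 100.0% at 2-fold, and the ETV6-R399C fit (14038 genes) 88.1% and 100.0%. False calls were 5.85% and 3.52% of the calls. The simulation gave all genes the same spread, changed only genes above a floor of reads and held no deviating library. It therefore does not give the recovery in the real libraries, where HIST1H4C at 2.47-fold was not called (edgeR, adjusted p = 0.0882). CPM in the text is relative to the reads of named genes, without TMM. Replicates differed beyond sampling noise (chi-square per degree of freedom 2.89 to 14.7). Deposited TPM values were summed per gene and used only for levels per length. Same-numbered libraries did not deviate together and were not treated as pairs.

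The members and the 31 gene lists were chosen with earlier results of these data known. Values in every library are given for the 12 members with the largest difference, the 8 with the highest sgERG level, members on a list, and up to 6 members per direction with the smallest adjusted p for ETV6-R399C. Other genes are named where a result turns on them, chosen after their values were seen. Alternatives were DESeq2 1.42.0 (test and size factors), no filter, a length offset, a replicate block, single libraries left out, 6 libraries per ETV6 fit and other forms of the selection rule. The permutation test of 3 against 3 libraries cannot go below 0.1 and was not used.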

Additional observations from a re-analysis of the deposited data

Results flagged for a closer look

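The direct test between the ETV6 forms (edgeR, in a fit that also held the tagBFP libraries) passed for 11 of the 52 members tested. Of these, 10 were higher and 1 lower with ETV6-R399C, where 9.29% of all 14242 genes tested were called higher and 12.1% lower. The levels of these 11 members differed between ETV6-R399C and ETV6-WT cells, and no test of their share was made. ETV6 itself was also lower with ETV6-R399C (-0.38, edgeR, adjusted p = 2.5e-05). The level of the transgene and the substitution cannot be told apart. The log2 fold change of ETV6-R399C over ETV6-WT was 0.70 for ADA2, 0.60 for ALOX5, 0.44 for RASSF2, 0.39 for CCM2L, 0.27 for EFEMP1 and 0.48 for MAFA. It was 0.48 for TRAF3IP3, 0.64 for TIMP1, 0.60 for HBEGF and 1.11 for FOS, and -0.62 for CAMKV. With an offset for transcript length the differences were 0.38 for TRAF3IP3, 1.27 for ADA2 and 0.41 for MAFA, and their adjusted p-values lay above 0.05 (edgeR, adjusted p 0.0892, 0.0614 and 0.0548). The adjusted p-value of TIMP1 was 0.0529 without ETV6-WT replicate 1 (edgeR, 0.53).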

How the results depend on the processing

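Of 759 values of 66 single-gene results under an alternative, 681 kept direction and side of the threshold, 65 lost the call, 7 gained it and 6 turned round. The 6 belong to genes that are no members and were not called: 0.09 for IER2 without sgERG replicate 2, 0.06 for NPAT with the length offset, and for BORCS8-MEF2B -0.12 and -0.28 without sgCtrl replicates 2 and 3 and -0.01 and -0.04 without sgERG replicates 1 and 3. Single libraries left out gave IER2 -0.16 to 0.09 and BORCS8-MEF2B -0.28 to 0.57. The alternatives for genes that are no members were added after seeing the data. Members called higher in sgERG were 38 to 55 with single libraries left out, 46 with the length offset and 50 with DESeq2. The replicate numbers do not pair the libraries (correlations of deviations -0.18 to 0.17), and a replicate block in the fit gave 52. With single libraries left out, members called in either direction for ETV6-WT over tagBFP were 7 to 10, for ETV6-R399C over tagBFP 7 to 10 higher and 1 to 5 lower, and for ETV6-R399C over ETV6-WT 9 to 10 higher and 1 to 2 lower. The length offset gave 5 called for ETV6-WT over tagBFP in place of 10, and 1 lower for ETV6-R399C over tagBFP in place of 3. The causes were not tested. The number of members was 46 to 69 with single libraries left out and 28 with a difference of at least 1. With TPM in place of CPM it was 56, of which 39 were among the 59. Depth limits members of a few CPM in the ETV6 experiment, where 7 could not be tested.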
